A study of Mus musculus with 16 samples.

Results

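A set of 9 histone deacetylase genes of the mouse was followed through 4 lists of chromatin peaks from late 2-cell embryos. Hdac6 and Hdac8 were not in this set and are given below with other deacetylases. The 9 members, Hdac1, Hdac2, Hdac3, Hdac4, Hdac5, Hdac7, Hdac9, Hdac10 and Hdac11, were found by symbol among 21887 protein-coding genes of the RefSeq table of GRCm38, and all 9 had an entry. Embryos were collected 36 h after fertilization. Control embryos had been injected with water at the zygote stage, and mutant embryos had received mRNA of an Hdac1 mutant. The labels give neither the nature of the mutation nor the mouse strain. H3K27ac and H3K4me3 were profiled by native chromatin immunoprecipitation from very few cells, with 2 immunoprecipitation and 2 input libraries for each mark and condition, and the authors deposited 1 peak list for each mark and condition. With 1 list a group, no value below has a replicate error, no test between conditions was possible, and every difference is a difference between lists. The lists hold positions only, so the strength of a peak and the depth of a library are unknown. Less mark at every allele and fewer alleles with the mark cannot be told apart in such lists.

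Histone deacetylases remove acetyl groups from lysines of histones and other proteins, and so oppose acetyltransferases. Class I enzymes, here Hdac1, Hdac2 and Hdac3, are mostly nuclear and work in corepressor complexes. Hdac1 and Hdac2 are close relatives that share the Sin3, NuRD and CoREST complexes, and Hdac3 is the enzyme of the NCoR and SMRT complexes. Class IIa enzymes (Hdac4, Hdac5, Hdac7 and Hdac9) move between nucleus and cytoplasm and bind MEF2 transcription factors. Hdac10, of class IIb, deacetylates polyamines, and Hdac11 is the sole enzyme of class IV. H3K27ac marks active promoters and enhancers, and H3K4me3 marks mainly promoters. Around zygotic genome activation at the 2-cell stage, zygotic transcription replaces the maternal transcripts.

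Annotated start sites were matched in RefSeq's promoter table of GRCm38.p6 for 6 of the 9 members, with 10 start sites in all. Hdac2, Hdac4, Hdac5 and Hdac11 had 1 each, Hdac9 had 2 and Hdac7 had 4. Hdac1, Hdac3 and Hdac10 were not matched. The 250 bases upstream of 4 start sites are shown because the marks over or beside them differed in kind. The Hdac4 site held H3K4me3 in both conditions and H3K27ac in control alone, and the Hdac5 site held H3K4me3 alone. The Hdac7 site lay beside an H3K4me3 peak of the control list alone, and the Hdac9 site was over no peak. Capitals mark matches to GGGCGG (a GC box), to the CCAAT box and to TATAAA, each searched on both strands. No match overlapped another. All 4 sequences are on the minus strand and run 5′ to 3′ towards the start site.
Hdac4 upstream of its start (chr1:92180342-92180591): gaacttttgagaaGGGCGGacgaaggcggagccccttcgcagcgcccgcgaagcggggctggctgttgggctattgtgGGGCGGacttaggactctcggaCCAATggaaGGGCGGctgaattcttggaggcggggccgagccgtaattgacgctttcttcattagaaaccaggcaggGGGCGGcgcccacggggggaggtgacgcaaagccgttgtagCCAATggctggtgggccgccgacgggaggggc
Hdac5 upstream of its start (chr11:102230173-102230422): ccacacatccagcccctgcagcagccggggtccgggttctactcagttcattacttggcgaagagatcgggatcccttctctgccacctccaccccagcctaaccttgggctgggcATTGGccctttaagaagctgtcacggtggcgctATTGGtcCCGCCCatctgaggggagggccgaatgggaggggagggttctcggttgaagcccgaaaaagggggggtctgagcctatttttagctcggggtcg
Hdac7 upstream of the third of its starts by position (chr15:97831768-97832017): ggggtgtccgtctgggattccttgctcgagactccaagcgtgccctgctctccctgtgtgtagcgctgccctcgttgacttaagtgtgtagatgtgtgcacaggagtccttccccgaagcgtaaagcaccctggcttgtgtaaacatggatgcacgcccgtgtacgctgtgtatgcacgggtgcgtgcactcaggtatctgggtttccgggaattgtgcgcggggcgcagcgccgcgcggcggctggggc
Hdac9 upstream of its outer start (chr12:34917096-34917345): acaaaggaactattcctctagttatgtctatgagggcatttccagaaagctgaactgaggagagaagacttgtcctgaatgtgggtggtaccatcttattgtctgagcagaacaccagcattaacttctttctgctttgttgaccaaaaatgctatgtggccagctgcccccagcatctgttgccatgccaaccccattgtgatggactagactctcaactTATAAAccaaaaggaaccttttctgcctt
The Hdac4 sequence held 4 GC boxes and 2 CCAAT matches, the Hdac5 sequence 1 GC box and 2 CCAAT matches, and the Hdac9 sequence 1 TATAAA match. The Hdac7 sequence had no match to the 3 motifs. Of 21263 upstream sequences of protein-coding genes, 42.6% held a GC box, 35.4% a CCAAT match and 11.6% a TATAAA match. The number of CG dinucleotides was 23 at Hdac4, 12 at Hdac5, 21 at Hdac7 and 0 at Hdac9, against a median of 10 over all upstream sequences. Of the stretches not shown, that at Hdac2 had 27 and that at Hdac11 had 17. The other Hdac9 site had 2, and the remaining Hdac7 sites had 5, 25 and 6 in order of position. The printed stretches at Hdac4 and Hdac7 lie within the outermost annotated ends of their genes, and the stretches not shown at Hdac2 and Hdac11 lie partly within them.

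The 300 bases around each start site (250 upstream and 50 downstream) were then set against the peaks. H3K27ac lay over 2 of the 10 member sites in control, those of Hdac2 and Hdac4, and over 0 in the mutant list. Among all start sites of the table, 36.7% held H3K27ac in control and 29.9% in the mutant list, with 17.8% marked in control only and 11% in mutant only. H3K4me3 lay over 5 sites in control, at Hdac2, Hdac4, Hdac5, Hdac11 and the second Hdac7 site. In the mutant list it lay over 4, without Hdac7. The shares of all start sites with H3K4me3 were 66.8% in control and 63.3% in the mutant list, with 7.96% in control only and 4.4% in mutant only. By member, H3K4me3 was over a start site of 5 of the 6 in control and 4 of the 6 in the mutant list. Since 6 of the 10 sites belong to Hdac7 and Hdac9, the share of sites is no measure of the family, and nothing particular to it is read from these counts.

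At Hdac2 (chromosome 10, 36974297 to 37001889) a control H3K27ac peak of 1171 bp covered all 300 bases at the start site. In the mutant list the nearest H3K27ac peak, of 908 bp, began 1588 bp downstream of the start, and a second peak lay upstream, so that the start sat in a gap. H3K4me3 covered the same 300 bases in both lists, with a peak of 1739 bp in control and of 5603 bp in the mutant list. The mutant H3K4me3 peak thus spanned the gap in H3K27ac. A count of peaks within 2 kb of the gene end scores Hdac2 as marked by H3K27ac in both conditions and does not show this gap.

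Hdac4, a class IIa gene of 266.9 kb (chromosome 1, 91928779 to 92195702), also had H3K27ac over its start in control and not in the mutant list. A control H3K27ac peak of 800 bp covered the start site at position 92180341, and the nearest mutant peak, of 3260 bp, lay 464 bp downstream. The H3K4me3 peak over the start measured 4534 bp in control and 7465 bp in the mutant list. This start lies inside the outermost annotated end of the gene. The windows of 2 kb at the gene ends therefore missed both peaks, and the H3K4me3 peaks they did hold were of 1225 bp at one end in control and of 1048 bp at the opposite end in the mutant list.

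The remaining start sites differed less for H3K27ac, which was over none of them in either list. At Hdac5 the H3K4me3 peak over the start measured 2453 bp in control and 11776 bp in the mutant list. A second control peak, of 20561 bp, began within 2 kb upstream of that start, so the widest peak at this gene end was wider in control. At Hdac11 the H3K4me3 peak over the start measured 8120 bp and 8283 bp. At Hdac7 the second start site was covered over 222 of its 300 bases by a control H3K4me3 peak of 1424 bp, which ended 100 bp short of the third start site. The nearest mutant H3K4me3 peak lay 10116 bp downstream of the second site. At Hdac9 neither start site was under a peak, although a mutant H3K4me3 peak of 211 bp lay 104 bp downstream of the outer start.

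**Figure D1:**
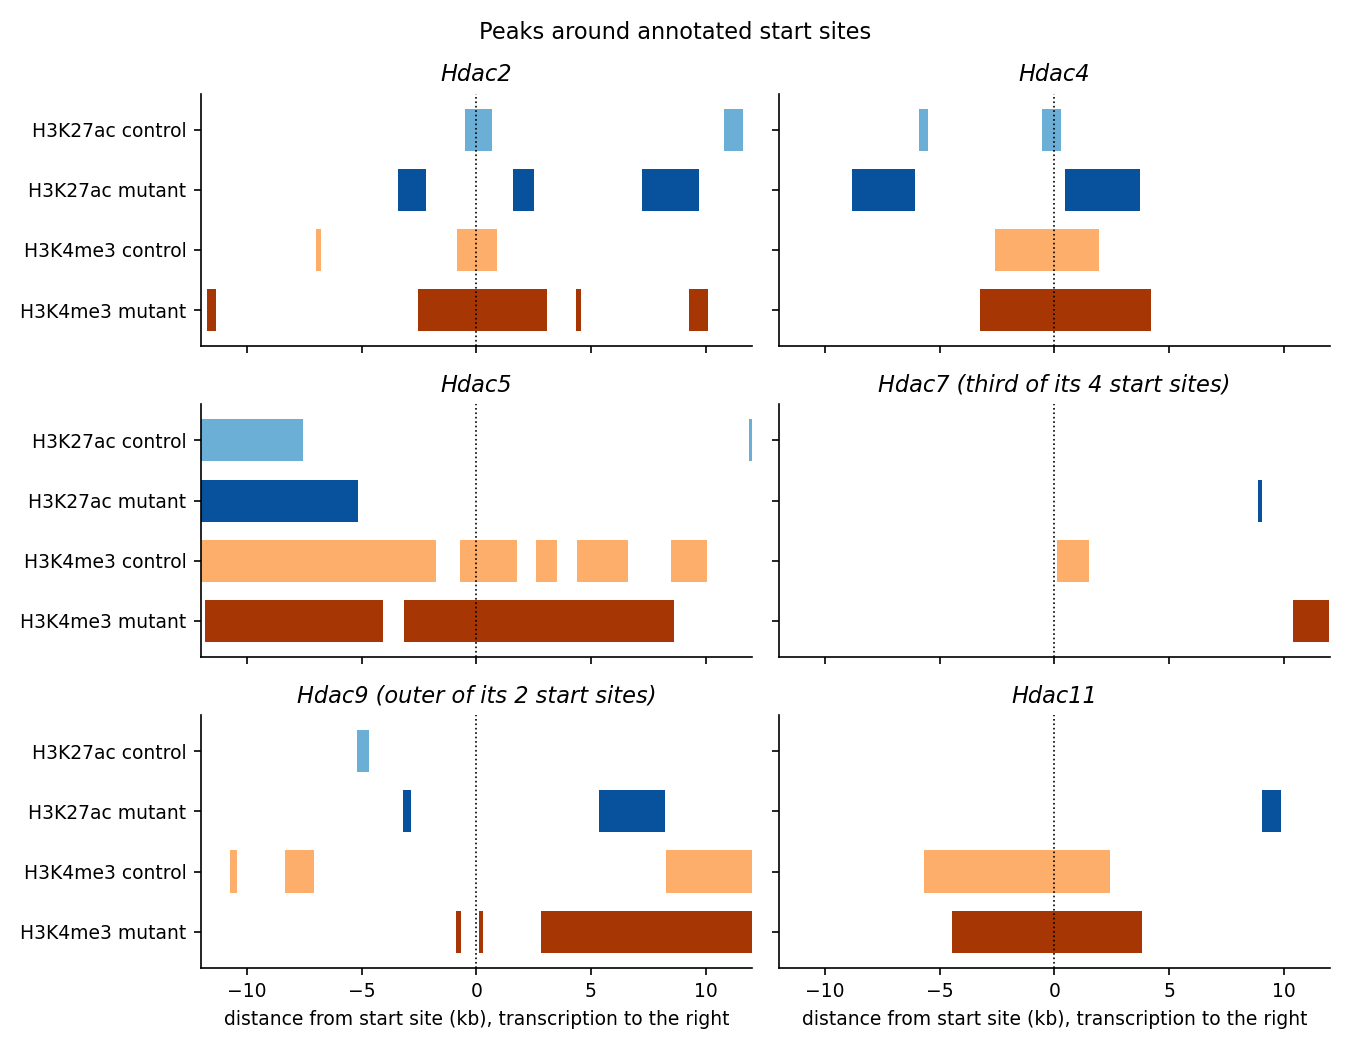
Peaks of the 4 lists (rows) within 12 kb of 1 start site each of 6 members, with transcription to the right of the dotted line. Bars span the peaks to scale. At Hdac2 and Hdac4 the control H3K27ac peaks of 1171 and 800 bp cross the start and the mutant H3K27ac peaks do not, while H3K4me3 crosses it in both.

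Hdac1 (chromosome 4, 129516104 to 129542646, 26.5 kb) was the member with most H3K27ac in control embryos. Control peaks covered 23566 bp of its body, or 88.8%, and mutant peaks covered 4080 bp, or 15.4%. The control cover was thus 5.78 times the mutant cover. H3K4me3 covered 18457 bp (69.5%) in control and 12121 bp (45.7%) in the mutant list, 1.52 times as much in control. For comparison, the median gene body was covered to 4.89% by H3K27ac in control and to 6.68% in the mutant list. Of all genes, 7.64% were covered by H3K27ac at least as far as Hdac1 in control and 37.4% in the mutant list. A mutant to control ratio of H3K27ac as low as that of Hdac1 was found at 17.9% of the 14320 genes with a control peak in the body. Genes with a control peak of any width count here. The share among genes covered as far as Hdac1 in control was not computed.

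The difference ran along most of the gene. In control embryos 3 H3K27ac peaks of 11125, 3257 and 13709 bp followed each other from 574 bp inside the end next to Marcksl1 to beyond the end that faces Lck. In the mutant list peaks of 1202 and 2878 bp lay inside the gene, and a peak of 8308 bp stood between Hdac1 and Lck with 0 bases in Hdac1. Divided into 3 equal parts from the Marcksl1 side, the gene was covered by H3K27ac to 93.5%, 72.8% and 100% in control and to 13.6%, 0% and 32.5% in the mutant list. H3K4me3 covered 41.3%, 67.3% and 100% in control and 0%, 37% and 100% in the mutant list. The part facing Lck thus kept its H3K4me3 in full, and the part next to Marcksl1 had none in the mutant list.

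No mutant peak base of either mark was found at the Hdac1 locus, the gene with 2 kb on each side, outside the control peaks. All 5358 mutant H3K27ac bases lay within the 25566 control bases, and all 15860 mutant H3K4me3 bases within the 22457 control bases. Over the chromosomes, 44% of mutant H3K27ac bases and 53% of mutant H3K4me3 bases lay under control peaks. Control peaks covered 83.7% of the Hdac1 locus for H3K27ac and 73.5% for H3K4me3, so much of this overlap would arise wherever the mutant peaks lay. Bases under both marks numbered 18603 in control and 4156 in the mutant list. They made up 82.8% of the H3K4me3 bases of the locus in control and 26.2% in the mutant list, against 52.8% and 36.1% over the chromosomes. The locus as a whole was covered by H3K27ac to 83.7% in control and to 17.5% in the mutant list.

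The widest peak touching the ends of Hdac1 gave a different picture for H3K4me3. It measured 32422 bp in control and 42350 bp in the mutant list. The control peak had 13721 bp in Hdac1 and reached Lck, a T-cell kinase gene. The mutant peak had 0 bases in Hdac1, ended 262 bp before it, and covered ends of Marcksl1, Fam229a, Tssk3 and Bsdc1. The gap between Marcksl1 and Hdac1 is 122 bp, so peaks at this end cannot be assigned to 1 of the genes. The H3K4me3 peak over the end facing Lck measured 19324 bp in the mutant list.

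**Figure D2:**
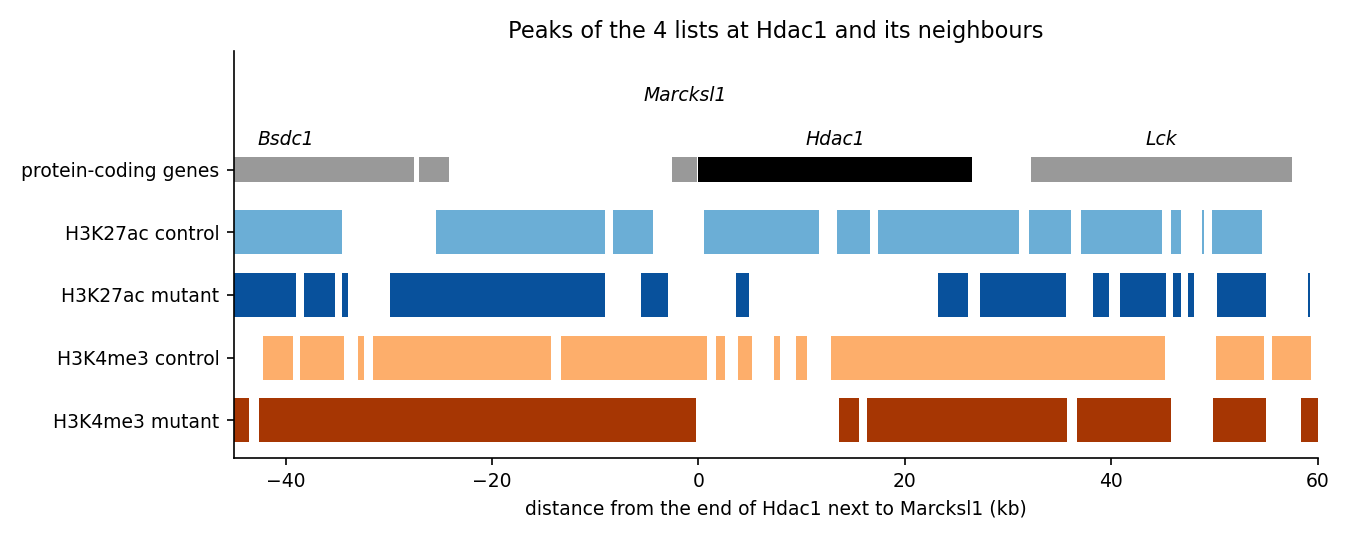
Peaks of the 4 lists around Hdac1 (black bar) and neighbouring protein-coding genes (grey), in kb from the Hdac1 end next to Marcksl1. Control H3K27ac covers 88.8% of the gene body and mutant H3K27ac 15.4%, and the widest mutant H3K4me3 peak, of 42350 bp, stops 262 bp short of the gene.

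By the widths of the widest gene-end peaks in the 4 lists, the genes most like Hdac1 were Wdr81, Ncoa3 and LOC115489489, among 8478 genes with a peak in all 4 lists and more than 1 Mb away. Likeness was the Euclidean distance over the 4 log2 widths, which was 0.50, 0.51 and 0.52. The widest mutant peaks of Hdac1, of 8308 bp for H3K27ac and 42350 bp for H3K4me3, had 0 bases in the gene. Likeness thus rests partly on peaks beside Hdac1. Ncoa3 and LOC115489489 had the same width in 3 lists. H3K27ac covered the body of Wdr81 to 94.6% in control and 76.4% in the mutant list, that of Ncoa3 to 61.5% and 47.1%, and that of LOC115489489 to 71.1% and 28.2%.

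Hdac2 and Hdac3, the other class I members, did not share the H3K27ac difference of Hdac1. The body of Hdac2 was covered by H3K27ac over 5959 bp (21.6%) in control and 7188 bp (26.1%) in the mutant list. At the end away from the start site, a peak of 11749 bp in control held 4202 of these bases, and one of 11949 bp in the mutant list held 3229. Both peaks crossed the gene end. H3K4me3 covered 1129 bp (4.09%) of Hdac2 in control and 4352 bp (15.8%) in the mutant list, 3.85 times as much. All 2301 control H3K4me3 bases of the Hdac2 locus lay within the 7524 mutant bases, the reverse of the order at Hdac1. A ratio as high as that of Hdac2 was found at 4.52% of the 16962 genes with a control H3K4me3 peak in the body.

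Hdac3 (chromosome 18, 37936971 to 37955015) had no H3K27ac peak within 2 kb of either end in control or mutant embryos. Its H3K27ac lay inside the gene, as 3 peaks of 740 to 925 bp in control and 1 peak of 7739 bp in the mutant list. The covered part of the body was 2546 bp (14.1%) in control and 7739 bp (42.9%) in the mutant list, 3.04 times as much. The nearest H3K27ac peak was 2335 bp from the end facing Rell2 in control and 4858 bp from it in the mutant list. H3K4me3 lay over that end in both lists, with peaks of 2403 and 3321 bp. In the mutant list no base of the Hdac3 locus was under both marks, and in control 549 bases were. Rell2 begins 38 bp from Hdac3, so the H3K4me3 there may belong to either gene.

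**Figure D3:**
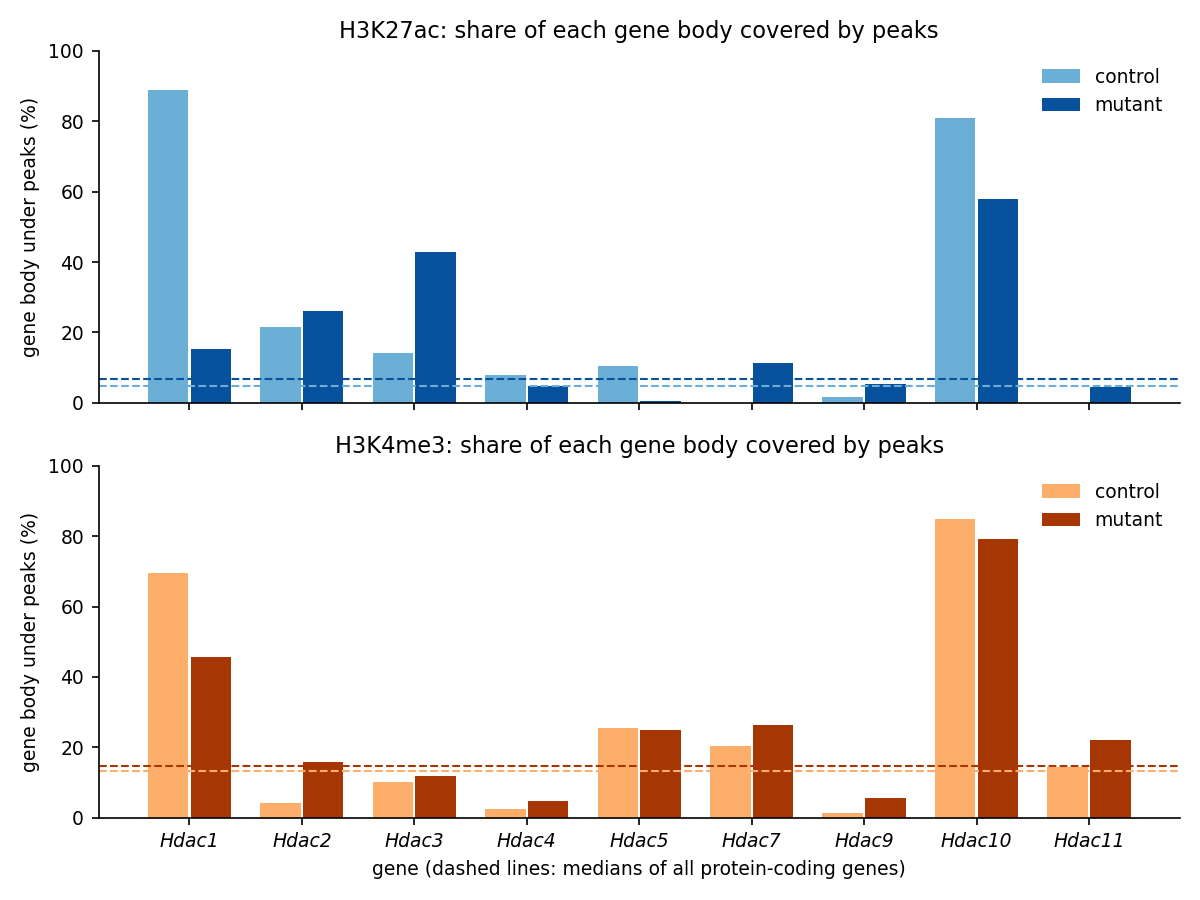
Share of each gene body under H3K27ac (upper panel) and H3K4me3 peaks (lower panel) in the control (light bars) and mutant list (dark bars), in percent, with 1 list per bar and dashed lines at the medians of 21887 protein-coding genes. Hdac1 stands at 88.8% and 15.4% for H3K27ac, whereas Hdac3 stands at 14.1% and 42.9%.

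Among the class IIa genes, no list held an H3K27ac peak within 2 kb of a gene end. Their H3K27ac lay within the bodies and differed in direction between genes. Hdac4 had 9 H3K27ac peaks over 21376 bp (8.01%) in control and 7 over 13183 bp (4.94%) in the mutant list, with 2412 bases in common. Its H3K4me3 covered 6371 bp of the body in control and 12613 bp in the mutant list. Hdac5 (chromosome 11, 102195747 to 102230172) had 4 H3K27ac peaks over 3660 bp (10.6%) in control and 1 peak of 155 bp (0.45%) in the mutant list. A peak of 155 bp is below the narrowest of the control list, 168 bp. H3K4me3 covered nearly the same length of the Hdac5 body in both lists, with 8793 and 8620 bp. Over the locus the mutant to control ratio was 1.09, and it was 2.14 in the wider 50% of each list.

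Hdac7 (chromosome 15, 97792661 to 97844502) had no H3K27ac peak in its locus in control, and the nearest lay 20955 bp beyond its low-coordinate end. In the mutant list 3 H3K27ac peaks covered 5785 bp, and the widest, of 5002 bp, lay within an H3K4me3 peak of 12134 bp. H3K4me3 covered 10595 bp of the body in control and 13704 bp in the mutant list, and 82% of the control bases of the locus were also under mutant peaks. At Hdac7, therefore, H3K27ac appeared in the mutant list over sequence that mostly carried H3K4me3, with 5342 of its 5785 bases under both marks.

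Hdac9 (chromosome 12, 34047580 to 34917095) is the longest member, at 869.5 kb, and both marks covered more of it in the mutant list. H3K27ac peaks in its body numbered 17 in control and 41 in the mutant list, and covered 14132 bp (1.63%) and 47175 bp (5.43%), 3.34 times as much. H3K4me3 peaks in the body numbered 14 in control and 19 in the mutant list, and covered 12006 bp (1.38%) and 48965 bp (5.63%), 4.08 times as much. Ratios as high were found at 11% of genes for H3K27ac and 3.99% for H3K4me3, among genes with a control peak in the body. Divided into 3 parts of 289.8 kb, the gene differed most in covered bases next to the low-coordinate end, the part farthest from the outer start site. There H3K4me3 covered 1800 bp in control and 34920 bp in the mutant list, and H3K27ac covered 9960 and 31071 bp. In the middle part H3K4me3 cover was lower in the mutant list, 2557 against 2896 bp, and in the part next to the outer start it was 11488 against 7310 bp. H3K27ac covered 2386 bp of the middle part in control and 8232 bp in the mutant list, and 1786 and 7872 bp of the part next to the outer start. As a ratio, the H3K27ac difference was therefore smallest next to the low-coordinate end.

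Few positions were shared at Hdac9. Of the mutant H3K27ac bases 6.61% lay under control peaks, and of the mutant H3K4me3 bases 9.51%. Both shares were above the control cover of the locus, which was 1.62% for H3K27ac and 1.37% for H3K4me3. Bases under both marks numbered 0 in control and 16696 in the mutant list, or 33.9% of the mutant H3K4me3 bases of the locus. The median width of H3K4me3 peaks at Hdac9 was 386 bp in control and 1189 bp in the mutant list. Even so, the cover of Hdac9 stayed below the medians over all gene bodies, which for H3K4me3 were 13.2% in control and 14.7% in the mutant list.

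**Figure D4:**
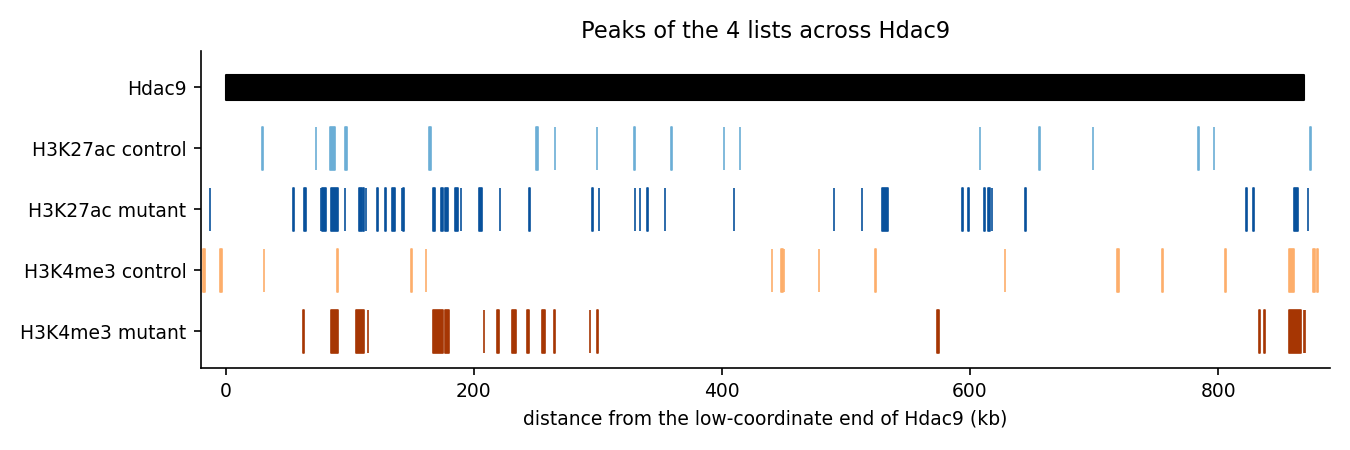
Peaks of the 4 lists across Hdac9 (black bar), in kb from its low-coordinate end, with a thin outline that makes the narrowest peaks visible and slightly wider than to scale. The 41 mutant H3K27ac and 19 mutant H3K4me3 peaks in the body lie mostly in the left part of 289.8 kb, which holds 22 and 12 of them by midpoint, against 7 and 4 of the control peaks.

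Hdac10 (chromosome 15, 89123303 to 89128700) is the shortest member, at 5.4 kb, and carried both marks over most of its length in all 4 lists. H3K27ac covered 80.8% of its body in control and 58% in the mutant list, and H3K4me3 covered 84.8% and 79.2%. Its widest peaks crossed into Tubgcp6, 94 bp away, in every list. Hdac11 (chromosome 6, 91156670 to 91174692) carried no H3K27ac in its locus in control, and 822 bp of its body (4.56%) lay under a mutant peak. Its only gene-end H3K27ac peak, of 6305 bp in the mutant list, began 574 bp beyond the end away from the start site, where the nearest control peak was 4080 bp away. Of the H3K4me3 over the start of Hdac11, all 4575 control bases of the locus lay within the 5959 mutant bases.

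Across the 9 members, 3 carried H3K27ac at a gene end in control (Hdac1, Hdac2 and Hdac10) and 4 in the mutant list, where Hdac11 joined them. Over all protein-coding genes the shares were 54.8% and 58%. Hdac6 and Hdac8, which are not among the 9, had such a peak in both lists. No member lost gene-end H3K27ac at both ends, as 12.5% of all genes did, and 1 gained it, as 15.6% did. Only the 3 members with such a peak in control could lose it. Hdac1 kept it at the end facing Lck alone, and at the Marcksl1 end the nearest mutant peak was 2993 bp away. H3K4me3 was at a gene end of 7 members in control and of 9 in the mutant list, where 74.7% and 72.9% of all genes had it. The 2 gains, against 4.85% of all genes, were Hdac7, with 1258 bp, and Hdac9, with 465 bp of the 8000 bp of windows. The Hdac7 gain was a peak of 3955 bp that ended 743 bp before Hdac7 and lay wholly within Slc48a1, a gene that overlaps Hdac7 by 32 bp, so this peak cannot be assigned to Hdac7. The Hdac9 gain was made of peaks of 211 and 254 bp, and with peaks narrower than 500 bp dropped Hdac7 was the 1 gain, against 4.22% of all genes. There were 0 losses, against 6.68%, but with windows of 1 kb Hdac4 became 1 loss, against 7.08%. With windows of 5 kb, H3K4me3 was at all 9 members in both lists, against 79.3% and 78.2% of all genes, and the 2 gains were no longer seen. With the same windows the same 8 members had H3K27ac in each condition, where 65.5% of all genes had it in control and 71.6% in the mutant list, and the Hdac11 gain was no longer seen either. Of these 8, Hdac3, Hdac4, Hdac5 and Hdac9 had a peak that came within 5 kb of an end but not within 2 kb in both lists. Within 2 kb of the gene end on the start-site side, H3K27ac was at 1 of the 6 members with a strand in each list, against 45.6% of 17492 genes in control and 44.9% in the mutant list. H3K4me3 was there at 3 of the 6 in control and 5 in the mutant list, against 71.1% and 67.8%.

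For the whole locus a difference was counted at 1.5-fold. H3K27ac cover was lower in the mutant list at 3 members (Hdac1, Hdac4 and Hdac5), as at 28.2% of all genes. It was higher at 4 (Hdac3, Hdac7, Hdac9 and Hdac11), as at 27.9%, and within 1.5-fold at Hdac2 and Hdac10. H3K4me3 cover was lower at 0 members, against 17.3% of all genes, and higher at 3 (Hdac2, Hdac4 and Hdac9), against 23.5%. For 9 genes these counts are close to the shares over all genes, so nothing particular to the family is read from them. Hdac4 was the member at which the marks differed in opposite directions past this fold, with 21376 and 13183 bp of H3K27ac against 7442 and 13057 bp of H3K4me3. Neither difference at Hdac4 reached 2-fold. In the wider 50% of each list 6 of the 9 members had more H3K4me3, against 22.8% of all genes, so with this setting the count was above that share. In the gene bodies without flanks Hdac1 had less, as did 18.3% of all genes.

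**Figure D5:**
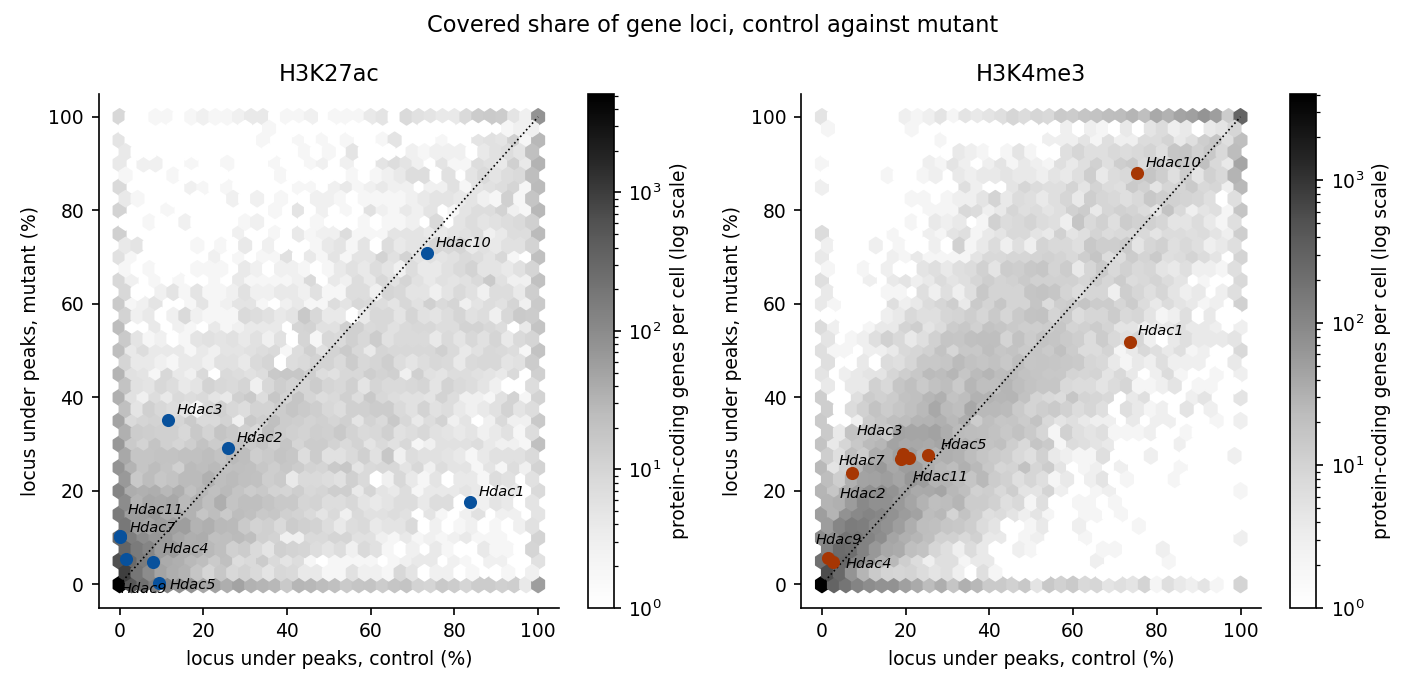
Share of each locus (gene with 2 kb on each side) under H3K27ac (left) and H3K4me3 peaks (right), control list on the horizontal and mutant list on the vertical axis, in percent. Grey cells count protein-coding genes on a log scale, points are the 9 members and the dotted line marks equal shares. Hdac1 lies far below the line for H3K27ac, at 83.7% and 17.5%, and Hdac10 close to it, at 73.6% and 70.9%.

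Other deacetylases were taken as Hdac6, Hdac8 and the sirtuins Sirt1 to Sirt7, which use NAD for the reaction. All 9 of them had a gene-end peak of both marks in both conditions, where 54.8% and 58% of all genes had H3K27ac and 74.7% and 72.9% had H3K4me3. H3K27ac cover of the locus was at least 1.5-fold lower in the mutant list at 3, against 28.2% of all genes, and higher at 2, against 27.9%. H3K4me3 cover was lower at 2, against 17.3%, and higher at 2, against 23.5%. Hdac6, on the X chromosome and named after its values were seen, resembled Hdac1. H3K27ac covered 95.6% of its body in control and 25.2% in the mutant list, and H3K4me3 covered 41.4% and 14.5%. Such values were not confined to deacetylases. At Chd4, a partner given below, H3K27ac covered 86.4% and 12.8% of the body and H3K4me3 48.8% and 16.5%.

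Partners of the deacetylases, 23 genes for subunits of the Sin3, NuRD, CoREST and NCoR complexes and for MEF2 factors, had gene-end H3K27ac at 18 genes in control and 17 in the mutant list, against 54.8% and 58% of all genes. Loss at 4 of the 23 stood against 12.5% of all genes, and gain at 3 against 15.6%. It was absent from the mutant list at Chd4, Gps2, Rcor1 and Kdm1a, whose widest control peaks measured 27118, 26509, 17435 and 9912 bp. Chd4 is the remodelling ATPase of NuRD, Gps2 a subunit of the NCoR complex, and Rcor1 and Kdm1a are the scaffold and the demethylase of CoREST. The body of Kdm1a nevertheless had more H3K27ac in the mutant list, 48.9% against 31% in control. Gene-end H3K27ac was present in the mutant list alone at Sin3b, Tbl1xr1 and Mef2a, with peaks of 738, 4911 and 3012 bp. H3K4me3 was at a gene end of the same 22 of the 23 genes in both conditions, against 74.7% and 72.9% of all genes, and 0 genes lost or gained it. H3K27ac cover of the locus was at least 1.5-fold lower in the mutant list at 6 partners, against 28.2% of all genes, and higher at 6, against 27.9%. H3K4me3 cover was lower at 3, against 17.3%, and higher at 5, against 23.5%.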

How the data were processed

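Peaks were described from 4 lists deposited by the authors, 1 for each mark and condition, with chromosome, start and end of each peak and no score, height or p-value. The submitters' processing notes name Trimmomatic, Bowtie2, SAMtools, Picard, MACS2 and deepTools and the builds mm10 and GRCm38, without roles or settings, and the labels do not say whether libraries were pooled. Lists held 77349 (control H3K27ac), 122487 (mutant H3K27ac), 86798 (control H3K4me3) and 85780 peaks (mutant H3K4me3) on chromosomes 1 to 19, X and Y, and 20 to 95 peaks on other scaffolds were left out. The narrowest peaks measured 168, 149, 169 and 182 bp in the same order, and whether the lists were called with the same limits, which can change peak numbers and widths, is not given in the sources used here.

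Gene positions came from RefSeq's table of GRCm38.p6. Peaks overlapping windows reaching 2 kb to either side of both gene ends by at least 1 bp were counted, and covered bases and the widest peak were measured there, over the body and over the locus (the gene with 2 kb on each side). Positions are printed 1-based. A locus was counted as different at 1.5-fold, also where 1 list had no cover. Start sites and sequences came from RefSeq's promoter table. The 9 members, the related gene lists and the rule for genes like Hdac1 (the 3 nearest by distance of log2 widths) were chosen with earlier results of these data known. Alternatives changed the window, the overlap, the fold, the merging of peaks and the widths kept. Interval code (Python 3.11.15, numpy 2.4.6, pandas 2.3.3) was tested on simulated data. No test was made, since each group has 1 list.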

Additional observations from a re-analysis of the deposited data

How the results depend on the processing

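No paired analysis was possible because the libraries of a group share 1 list, so neither a replicate block nor leaving out a library could be run. Of 68 recomputed counts of members, 60 stayed within 1.5 times the count as deposited and 8 moved. A count within 1.5 times can still hold other members. Gene-end H3K4me3 in the mutant list lost Hdac9 with peaks narrower than 500 bp dropped and Hdac4 with windows of 1 kb, leaving 8 members each. With windows of 5 kb, 8 members had gene-end H3K27ac in control and 8 in the mutant list. Counting the start-site end alone, which needs a strand and so leaves 6 members, gave 1 and 1 for H3K27ac, and 3 in control and 5 in the mutant list for H3K4me3. Members with more H3K4me3 cover in the mutant list numbered 6 in the wider 50% of each list, and members with less numbered 1 in the gene bodies without flanks. Of 124 ratios of single members, 120 stayed within 1.5 times of the value as deposited. Of those that did not, H3K4me3 cover of the Hdac5 locus was 1.09 as deposited and 2.14 in the wider 50% of each list, and the widest H3K27ac peak at Hdac1 was 0.606 and 0.366 with peaks less than 1 kb apart merged. Counted apart from this, 4 of the 124 crossed 1. Of these 4, 1 was past 1.5-fold as deposited, the widest H3K4me3 peak at Hdac5, 0.573 as deposited and 1.05 with that merging. The other 3 were within 1.5-fold as deposited. H3K4me3 cover of the Hdac5 locus went from 1.09 to 0.928 with that merging, and the widest H3K4me3 peak at Hdac10 from 1.01 to 0.641 with it and to 0.785 with common limits on gaps and widths. Causes were not tested.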
